A study of Mus musculus with 10 samples.

Results

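Aminoacyl-tRNA synthetases are the enzymes that attach each amino acid to its transfer RNA. They were taken from the deposited gene table as the protein-coding genes whose symbol is an amino acid letter followed by ars, with or without a closing 1 or 2, together with Farsa, Farsb, Fars2, Eprs and Tarsl2. This gave 38 of 19414 genes in the table, 14821 of which are protein-coding. A symbol ending in 2 marks a mitochondrial enzyme except for Tarsl2, so that 21 genes were counted as cytosolic and 17 as mitochondrial. The symbol rule itself used no expression value, but this gene family was chosen with earlier results of these data known.

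As a rule, a synthetase recognises 1 amino acid and the transfer RNAs that carry it, and the charged transfer RNAs are then used by the ribosome. Most amino acids have a cytosolic enzyme and a separate mitochondrial enzyme, both encoded in the nucleus, while Gars and Kars each encode the glycine or lysine enzyme of both compartments. In cells short of an amino acid, or under stress of the endoplasmic reticulum, the transcription factor ATF4 is translated more, and genes of several cytosolic synthetases are among its known targets. The liver makes most plasma proteins and is a main site of amino acid breakdown.

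The study compared female livers of the HET3 stock, in which each mouse is genetically distinct, on a Longevity diet (LD) or a standard diet (SD), with 5 mice per diet. Feeding lasted 5 months. The mice are given as 25 months old, which can be read as the age before or after that feeding, and the title of the series calls the diet methionine-supplemented. No transgene, drug or deletion is named for either group, and every mouse shares the stock, the sex and the tissue. The labels give no cage, litter, collection time or sequencing batch, and the makeup of the diets is not in the sources used here. Each library is 1 mouse, named by diet and number, such as LD_405, and no number occurs on both diets. The p-values below therefore set the difference between the diets against the spread between the mice of a diet. They cannot separate diet from a cage, litter or batch that differs with it.

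Values are counts per 1000000 reads (CPM) from poly-A selected RNA. Estimated depth, in units of 1000000 reads, was 42.5 ± 4.35 on SD and 29.96 ± 6.47 on LD (mean ± standard deviation, n = 5 each, two-sided exact permutation p = 0.0159), and ranged from 24.7 to 45.7. Values after ± are standard deviations over 5 mice throughout. All 380 synthetase values (38 genes in 10 mice) stood above the level of 3 reads, the lowest being 1.71 CPM, so no synthetase was at the limit of detection. The library LD_405 stood apart. Over the 13157 genes averaging 1 CPM or more, its median correlation with the other libraries was 0.889, against 0.914 to 0.942 for the rest. Values without it are given beside several of the synthetases that it moves. The mRNA was measured in whole liver, where fewer cells of a type and less RNA per cell cannot be told apart.

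On LD, the mRNA of the cytosolic synthetases stood mostly above SD, but the differences were small and 1 gene passed the test. Mars1, the methionine enzyme, rose 1.85-fold. Of the 21 cytosolic genes 1 rose and 0 fell at an adjusted p under 0.05 in limma, where 0.661% of all 13157 genes tested rose and 1.23% fell. The log2 change (LD over SD, of CPM with 0.1 added) was above 0 in 17 cytosolic genes and below 0 in 4, with a median of 0.34 and a range from -0.34 to 0.89. Over all genes tested, 39.6% were above 0 and the median was -0.11. An unadjusted p under 0.05 in the higher direction was reached by 9 of 21 cytosolic genes, against 5.92% of all genes, and in the lower direction by 0 of 21, against 11.6%.

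Of the 17 mitochondrial genes 0 rose and 0 fell. In limma 2 of them, Aars2 and Yars2, had an unadjusted p under 0.05, both higher on LD. The median log2 change was 0.13, the highest was 0.66, and 11 of 17 were above 0. In 7 of the 38 genes all 5 LD mice stood above all 5 SD mice, namely Mars1, Yars, Sars, Gars, Farsa, Farsb and Yars2, and in 0 genes all 5 stood below. Over all genes tested, 2.01% separated upward and 3.49% downward. All 38 genes passed the filter on low values, so these counts cover every synthetase in the table.

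These signs depend in part on the scaling of the libraries. Median-of-ratios scaling moved the median of all genes up by 0.102 on the log2 scale, and with it 49.2% of all genes and 33 of the 38 synthetases were above 0, against 28 of 38 in the deposited CPM. The calls over all genes then split into 151 higher (1.15%) and 138 lower (1.05%), against 87 and 162. Cars, Gars, Mars1 and Yars rose under that scaling. Set against the median change of all genes, 34 of the 38 synthetases lay above it in either scaling.

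**Figure D1:**
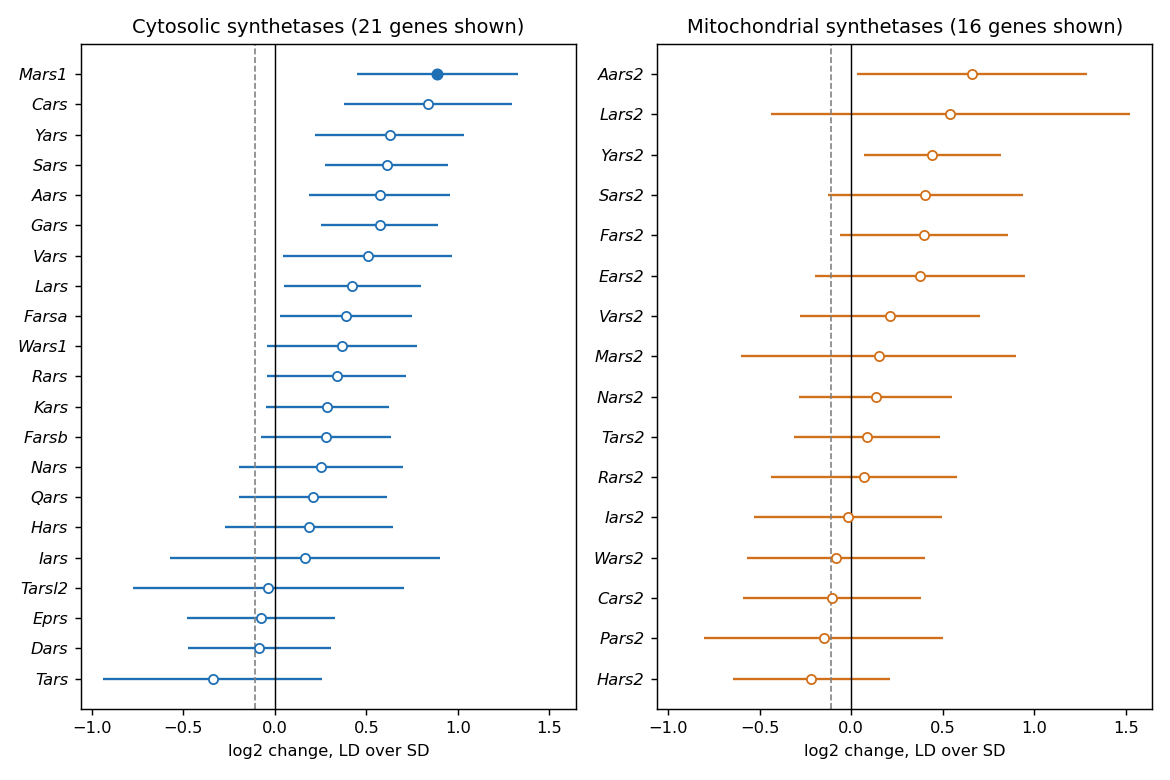
Log2 change of each synthetase mRNA, LD over SD (horizontal axis, log2 of CPM with 0.1 added), for the 21 cytosolic genes on the left and 16 mitochondrial genes on the right, with 95% confidence intervals from limma over 5 mice per diet. The filled point is Mars1, the 1 gene that passed the adjusted threshold, and the dashed line marks the median of all genes tested, -0.11.

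Mars1 (ENSMUSG00000040354.15, mm39 chromosome 10 from 127132090 to 127147655, minus strand) encodes the cytosolic methionyl-tRNA synthetase, which also charges the initiator transfer RNA that starts every cytosolic protein. The SD mice held 30.01 (SD_403), 42.0 (SD_500), 19.6 (SD_501), 34.4 (SD_502) and 32.2 CPM (SD_646). The LD mice held 49.1 (LD_405), 65.1 (LD_406), 59.5 (LD_442), 55.5 (LD_513) and 56.4 CPM (LD_515). Every LD mouse stood above every SD mouse, and SD_501 was the lowest of all. The means were 31.6 ± 8.12 and 57.1 ± 5.86 CPM, with a log2 change of 0.89 (SE 0.20, 95% CI 0.45 to 1.33, limma adjusted p = 0.0438). Leaving out any 1 mouse other than LD_405 moved the adjusted p above the threshold (0.0509 to 0.133 in limma), while without LD_405 it was 0.0274. The call was also lost with no filter on low values (adjusted p = 0.0525 in limma) and with the leading digit of the mouse number as a covariate (limma adjusted p = 0.155). Across all these settings and those named in the closing section, the log2 change stayed between 0.72 and 1.00.

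The 3' end of Mars1 overlaps that of Ddit3, a stress gene on the opposite strand, by 68 bases, and library strandedness is not stated per sample. Ddit3 was at 5.69 CPM on SD and 7.33 CPM on LD, and 1.26% of the 31-base stretches of the Mars1 transcript also occur in a Ddit3 transcript. The part of Ddit3 reads in the Mars1 value was not tested.

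Cars, the cytosolic cysteine enzyme (chromosome 7 from 143110967 to 143153827), showed a difference of similar size that missed the threshold. SD mice held 24.8 (SD_403), 21.7 (SD_500), 18.9 (SD_501), 36.8 (SD_502) and 20.8 CPM (SD_646), and LD mice 35.2 (LD_405), 41.9 (LD_406), 56.3 (LD_442), 37.4 (LD_513) and 46.2 CPM (LD_515). SD_502 reached into the LD range, above LD_405, and 4 of 5 LD mice stood above all SD mice. The log2 change was 0.84 (SE 0.21, limma adjusted p = 0.0672). Without LD_405 the limma adjusted p was 0.0369 and without SD_502 it was 0.0251, while without any other mouse it was between 0.0861 and 0.157.

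Sars, the serine enzyme (chromosome 3 from 108332181 to 108352525), separated by diet. Its SD values were 45.9 (SD_403), 44.6 (SD_500), 39.1 (SD_501), 36.7 (SD_502) and 47.5 CPM (SD_646). Its LD values were 71.7 (LD_405), 63.5 (LD_406), 69.6 (LD_442), 56.5 (LD_513) and 64.8 CPM (LD_515). All LD mice were above all SD mice, LD_405 being the highest of the 10. The means of 42.8 ± 4.63 and 65.2 ± 5.90 CPM gave a log2 change of 0.61 (limma adjusted p = 0.0678).

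Gars, the glycine enzyme of cytosol and mitochondria (chromosome 6 from 55014992 to 55056485), also separated by diet. SD mice held 31.7 (SD_403), 33.1 (SD_500), 30.4 (SD_501), 37.9 (SD_502) and 36.8 CPM (SD_646), and LD mice 48.3 (LD_405), 50.1 (LD_406), 47.9 (LD_442), 53.5 (LD_513) and 52.2 CPM (LD_515). The diets did not overlap, and the gap between them was wider than the SD range. The means were 33.99 ± 3.24 and 50.4 ± 2.45 CPM, a log2 change of 0.57 (limma adjusted p = 0.0728, and 0.0442 without LD_405).

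Yars, the tyrosine enzyme (chromosome 4 from 129083553 to 129113400), held 24.9 (SD_403), 26.5 (SD_500), 17.5 (SD_501), 28.1 (SD_502) and 20.7 CPM (SD_646) on SD. On LD it held 36.2 (LD_405), 33.0 (LD_406), 42.1 (LD_442), 40.4 (LD_513) and 29.0 CPM (LD_515). LD_515 stood just above SD_502 and the diets did not overlap. The log2 change was 0.63 (limma adjusted p = 0.110). The gene overlaps C77080 on the opposite strand by 30 bases, and C77080 was at 58.0 CPM on SD and 74.3 CPM on LD.

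**Figure D2:**
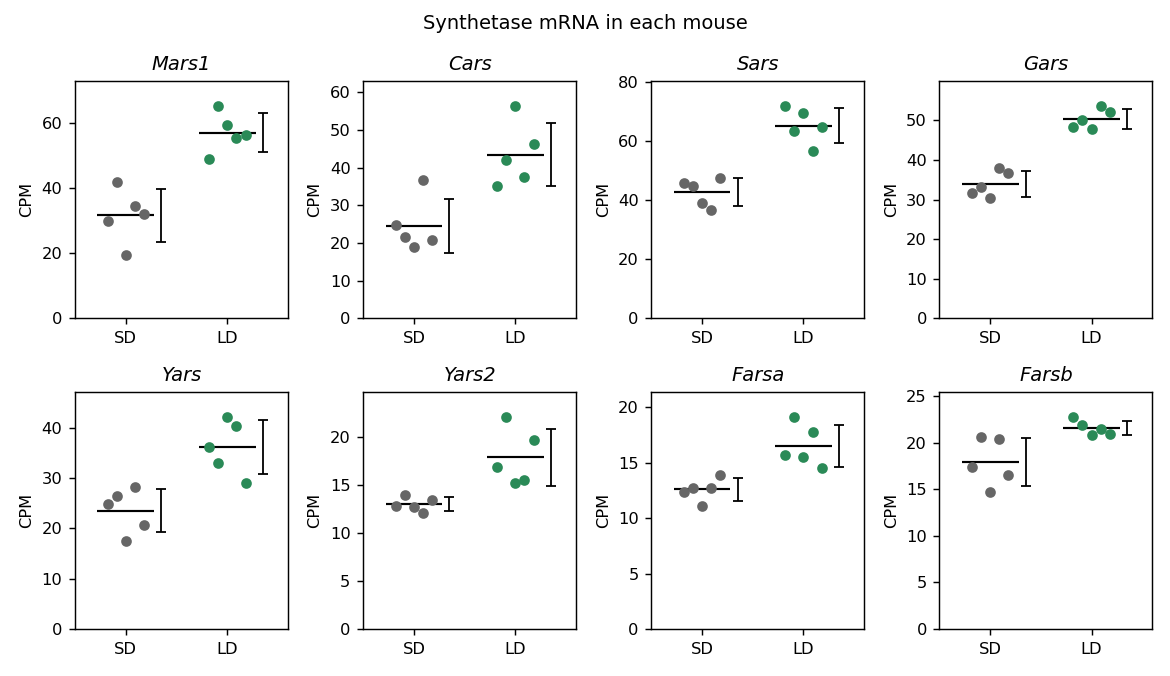
CPM of 8 synthetases in each mouse (vertical axis, from 0), with SD in grey and LD in green, the mean as a horizontal line and plus or minus the standard deviation of 5 mice as the bar beside it. The panels show the 7 genes whose diets do not overlap and Cars, where SD_502 at 36.8 CPM lies within the LD range.

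The phenylalanine enzyme of the cytosol is built from an alpha and a beta subunit, encoded by Farsa and Farsb, and both genes separated by diet with smaller differences. Farsa held 12.4 (SD_403), 12.8 (SD_500), 11.1 (SD_501), 12.8 (SD_502) and 13.9 CPM (SD_646) against 15.7 (LD_405), 19.1 (LD_406), 15.5 (LD_442), 17.8 (LD_513) and 14.5 CPM (LD_515). Farsb held 17.3 (SD_403), 20.6 (SD_500), 14.7 (SD_501), 20.4 (SD_502) and 16.5 CPM (SD_646) against 22.7 (LD_405), 21.9 (LD_406), 20.8 (LD_442), 21.4 (LD_513) and 20.97 CPM (LD_515). For Farsb the lowest LD mouse stood only just above SD_500. The log2 changes were 0.39 for Farsa (limma adjusted p = 0.252) and 0.28 for Farsb (limma adjusted p = 0.405), neither past the threshold.

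Aars, the alanine enzyme, ranged from 96.5 to 151 CPM on SD and from 146 to 224 CPM on LD, with SD_502 above LD_515 and 4 of the LD mice above every SD mouse. Its log2 change was 0.57 (limma adjusted p = 0.124). Vars, the valine enzyme, ranged from 24.8 to 38.0 CPM and from 32.6 to 70.7 CPM, the top value being LD_405 (log2 change 0.51, limma adjusted p = 0.240; 0.36 without LD_405). Lars, the leucine enzyme, ranged from 14.3 to 21.5 CPM on SD and from 21.2 to 23.9 CPM on LD, SD_502 lying inside the LD range (log2 change 0.42, limma adjusted p = 0.226). Wars1, the tryptophan enzyme, which interferon-gamma is known to induce, had a log2 change of 0.37 (limma adjusted p = 0.344). Of 8 interferon-gamma response genes 0 rose and 0 fell, where 0.661% and 1.23% of all genes did, with a median log2 change of -0.20.

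Tars, the threonine enzyme, had the lowest log2 change of the cytosolic genes. It held 112 (SD_403), 80.3 (SD_500), 55.4 (SD_501), 101 (SD_502) and 44.0 CPM (SD_646) on SD, and 37.6 (LD_405), 54.7 (LD_406), 70.5 (LD_442), 75.3 (LD_513) and 62.4 CPM (LD_515) on LD. No LD mouse reached the SD mean of 78.6 CPM, yet the SD mice spread more widely than the diets differed. The log2 change of -0.34 had a 95% CI from -0.94 to 0.26 (limma adjusted p = 0.553), and was -0.18 without LD_405 and -0.53 without SD_646. Tarsl2, a cytosolic relative of the threonine enzyme, had a log2 change of -0.04. It was at 2.82 CPM in LD_405, against 7.52 to 11.1 CPM in the other LD mice, and without LD_405 its log2 change was 0.30.

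The multi-synthetase complex of the cytosol joins 8 of these enzyme genes' products in a single particle, and the log2 changes of their genes ran from -0.09 to 0.89. Mars1 rose, while Eprs, the joint glutamate and proline enzyme, and Dars, the aspartate enzyme, had log2 changes of -0.08 and -0.09. Between these lay Lars (0.42), Rars for arginine (0.34), Kars for lysine (0.29), Qars for glutamine (0.21) and Iars for isoleucine (0.16, and 0.48 without LD_405). The median over the 8 genes was 0.25, and 1 of them separated by diet. Over the 13 cytosolic genes outside the complex the median was 0.39 and 5 separated. Of all genes tested 2.01% separated upward. Eprs and Dars turned to values above 0 under median-of-ratios scaling (0.028 and 0.017) and without LD_405 (0.040 and 0.046), so no direction is given for them. Aimp1, Aimp2 and Eef1e1, which encode the scaffold proteins of the complex, had log2 changes of 0.36, 0.40 and 0.09 (limma adjusted p = 0.360, 0.465 and 0.908).

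The remaining cytosolic genes, Nars for asparagine and Hars for histidine, had log2 changes of 0.25 and 0.19 (limma adjusted p = 0.558 and 0.681). In both, LD_405 was the lowest of all 10 mice, and without it the log2 changes were 0.42 and 0.36. Nars was at 38.8 CPM in LD_405 and 60.1 to 83.3 CPM in the other LD mice, above the SD range of 46.9 to 56.5 CPM. Hars was at 12.2 CPM in LD_405 and 19.4 to 23.4 CPM in the others. Hars lies head to head with Hars2, the mitochondrial histidine enzyme gene, with 198 bases in common, so reads there could be split between them.

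Among the mitochondrial enzymes, Yars2 for tyrosine was the 1 gene that separated by diet. It held 12.8 (SD_403), 14.0 (SD_500), 12.7 (SD_501), 12.1 (SD_502) and 13.5 CPM (SD_646) against 16.9 (LD_405), 22.1 (LD_406), 15.2 (LD_442), 15.6 (LD_513) and 19.7 CPM (LD_515). The SD mice lay close together and LD_406 was the highest. The log2 change was 0.44 (limma adjusted p = 0.206). Aars2 for alanine had the largest log2 change of the mitochondrial genes, 0.66 (95% CI 0.03 to 1.29, limma adjusted p = 0.261). The spread differed between the diets for this gene: SD mice ranged from 4.86 to 15.8 CPM and LD mice from 14.8 to 17.2 CPM, so the highest SD mice matched the LD mice. Without SD_501 its log2 change was 0.40.

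Sars2 for serine, Fars2 for phenylalanine and Ears2 for glutamate had log2 changes of 0.41, 0.40 and 0.38 (limma adjusted p = 0.416, 0.355 and 0.489), and the diets overlapped in each. Without LD_405 the value for Fars2 was 0.27. At the low end, Hars2 had -0.22 (limma adjusted p = 0.600). It was lowest in LD_405, and without that mouse the value was -0.08. Vars2, Mars2, Nars2, Tars2 and Rars2 lay between 0.07 and 0.21, and Iars2, Wars2, Cars2 and Pars2 between -0.15 and -0.02. No direction is given for these 9 genes, several of which change sign with the scaling or when a mouse is left out.

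Lars2, the mitochondrial leucine enzyme, stood apart by its level and its spread. It held 560.0 (SD_403), 1107 (SD_500), 1402 (SD_501), 649.8 (SD_502) and 1318 CPM (SD_646) on SD and 1714 (LD_405), 1162 (LD_406), 628 (LD_442), 4564 (LD_513) and 852 CPM (LD_515) on LD. The values overlapped widely, LD_513 lying far above LD_405, the next mouse. The log2 change of 0.54 had a 95% CI from -0.44 to 1.52 (limma adjusted p = 0.566). It was 0.11 without LD_513 and 0.82 without LD_442. LD_513 also had the highest mitochondrial ribosomal RNA of the 10 mice, with mt-Rnr1 at 1467 CPM and mt-Rnr2 at 1799 CPM. The other mice were mixed. LD_405, the next mouse for Lars2, held 538 CPM of mt-Rnr2, while SD_403 and LD_442, the lowest for Lars2, held 1083 and 1190 CPM. SD_502, the next lowest for Lars2, held 318 CPM of mt-Rnr2, the least of the 10 mice. SD_500, SD_501 and SD_646 held 782, 993 and 1193 CPM of mt-Rnr2, and LD_406 and LD_515 held 598 and 786 CPM. The relation of Lars2 to these RNAs was not tested. Part of the Lars2 transcript, 1.09% of its 31-base stretches, occurs also in AA474408 and Gm15564. The part of either in the Lars2 value was not tested, and Lars2 is left out of the sums below.

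The cytosolic and the mitochondrial enzyme of the same amino acid were set side by side in 15 pairs, with Farsa and Farsb each set against Fars2. The log2 change was larger in the cytosolic gene in 10 pairs and smaller in 5, with a median difference of 0.18. The widest pairs were cysteine, with 0.84 for Cars and -0.11 for Cars2, and methionine, with 0.89 for Mars1 and 0.15 for Mars2. For tyrosine, serine and alanine both genes lay well above 0: Yars and Yars2 at 0.63 and 0.44, Sars and Sars2 at 0.61 and 0.41, Aars and Aars2 at 0.57 and 0.66. Threonine went the other way, with -0.34 for Tars and 0.09 for Tars2. These differences between genes are a description and were not tested.

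**Figure D3:**
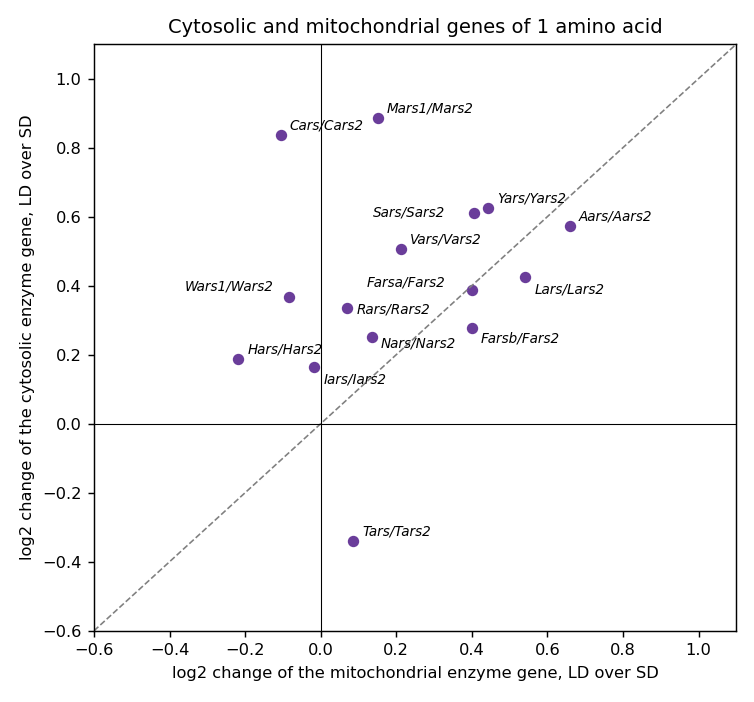
Log2 change, LD over SD, of the mitochondrial gene (horizontal axis) and the cytosolic gene (vertical axis) of the same amino acid for 15 pairs, with the dashed line marking equal change. Of the points 10 lie above the line, Cars/Cars2 and Mars1/Mars2 farthest, and Tars/Tars2 lies farthest below it.

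Summed over the 21 cytosolic genes, the mRNA was 741 ± 99.5 CPM on SD (626 to 872) and 941 ± 82.6 CPM on LD (844 to 1041). The 16 mitochondrial genes without Lars2 summed to 219 ± 25.5 CPM (188 to 247) and 241 ± 19.0 CPM (217 to 261). The lowest LD mouse, LD_405, lay within the SD range of the cytosolic sum. As a mean of log2 levels set against the SD mean, the cytosolic genes stood at 0.06 in LD_405, 0.37 in LD_406, 0.48 in LD_442, 0.48 in LD_513 and 0.27 in LD_515. The SD mice stood at 0.03 in SD_403, 0.08 in SD_500, -0.22 in SD_501, 0.24 in SD_502 and -0.13 in SD_646. SD_502 thus lay above LD_405 and just under LD_515, and the other 4 LD mice stood above every SD mouse.

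LD_405 did not hold a uniformly lower level of synthetase mRNA. It was the lowest of all 10 mice for 7 cytosolic genes (Dars, Eprs, Hars, Iars, Nars, Tars and Tarsl2) and the highest for 4 (Farsb, Kars, Sars and Vars). SD_501 was the lowest for 9 (Aars, Cars, Farsa, Farsb, Gars, Mars1, Qars, Wars1 and Yars). Without LD_405 the median log2 change of the cytosolic genes was 0.40 in place of 0.34, and that of the mitochondrial genes 0.20 in place of 0.13. In that fit Cars, Gars and Mars1 rose, beside 1.15% of all genes that rose and 1.73% that fell, 32 of the 38 synthetases were above 0, and so were 46.3% of all genes.

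**Figure D4:**
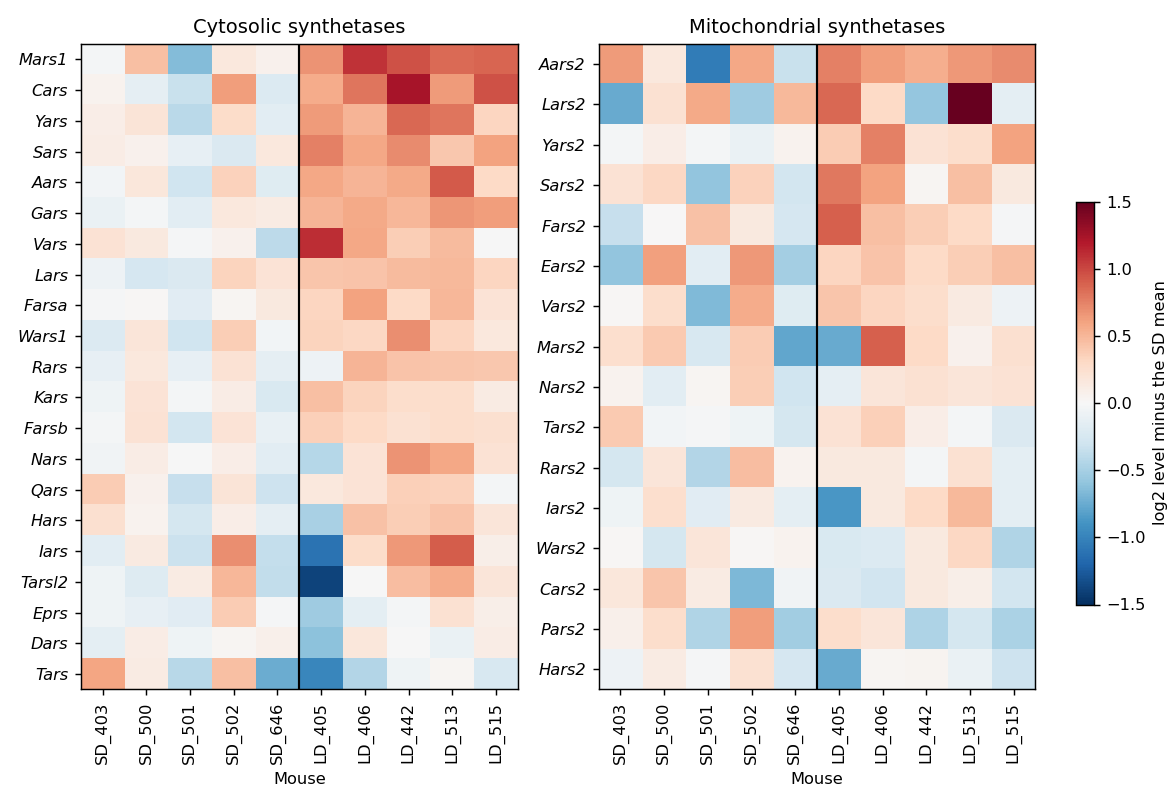
Log2 level of each synthetase in each mouse minus the SD mean of that gene (colour scale from -1.5 to 1.5), 21 cytosolic genes on the left and 16 mitochondrial genes on the right, ordered by log2 change, with the vertical line between the diets. The upper cytosolic rows are red in all 5 LD mice, and LD_405 is blue in the lower rows, as in Iars, Tarsl2 and Tars.

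**Figure D5:**
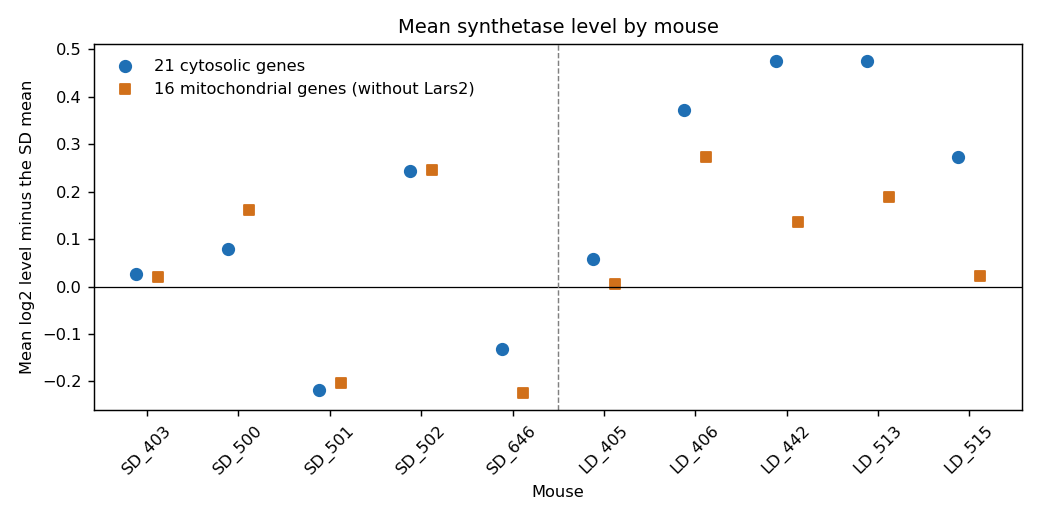
Mean log2 level of the 21 cytosolic genes (circles) and the 16 mitochondrial genes without Lars2 (squares) in each mouse, minus the SD mean. The cytosolic mean is 0.27 to 0.48 in 4 LD mice and 0.06 in LD_405, while SD mice range from -0.22 to 0.24.

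Per kilobase of transcript, which allows levels to be compared between genes, Aars was the highest cytosolic synthetase on SD at 20.9 CPM per kb. Tars and Kars followed at 19.6, Nars at 19.1 and Dars at 17.6 CPM per kb. The lowest was Tarsl2 at 2.41 CPM per kb. The median over the cytosolic genes was 9.17 CPM per kb on SD and 12.4 on LD. Over the mitochondrial genes without Lars2 it was 4.08 and 4.90 CPM per kb, and Lars2 itself stood at 259 and 458 CPM per kb. Lengths are those of the longest coding transcript in GENCODE M21, and 22.7% of the 31-base stretches of the Aars transcript are shared with Exosc6. On LD Aars was again the highest of the cytosolic genes at 31.02 CPM per kb, Gars stood at 21.2, Kars at 23.8 and Mars1 at 19.3.

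A list of 12 synthetases reported elsewhere as ATF4 targets was compared with the 9 other cytosolic genes. Of the 12, 1 rose (Mars1), 10 were above 0, 4 separated by diet and the median log2 change was 0.50. Of the other 9, 0 rose, 7 were above 0, 2 separated and the median was 0.28. Over all genes tested 0.661% rose, 39.6% were above 0 and 2.01% separated upward. Tars, at -0.34, was the lowest of the list. The list was drawn up with earlier results of these data known and is a description.

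ATF4 binds, with a C/EBP partner, DNA of the form TGATGNAA. This motif was looked for on both strands in RefSeq promoters, 250 bases before to 50 bases after a gene's start, on GRCm38.p6. A promoter was found for 28 of the 38 synthetases, and none was in the table for Cars, Hars, Hars2, Lars, Nars, Pars2, Rars, Vars and Wars1, among others. Counted by gene, the motif occurred in 5 of 14 cytosolic genes (35.7%) and in 0 of 14 mitochondrial genes. It occurred in 1219 of all 27025 genes with a promoter (4.51%), or in 1304 of 32851 single promoters (3.97%). Its form TGATGCAA, which is counted within it, occurred in 4 of the 14 cytosolic genes and in 1.03% of all genes with a promoter. All 5 motif-bearing genes belong to the 8 reported ATF4 targets that had a promoter. A match describes these letters only.

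The 5 promoters with a match are shown from 120 bases before the start to 20 after it, 5′ to 3′ on the gene's strand, with the match in capitals (TTGCATCA and TTTCATCA are the motif read on the opposite strand). Mars1, the gene that rose, is shown for comparison and holds no match in the 300-base window. Yars is chr4:129189783-129189922 (plus strand), Gars chr6:55037881-55038020 (plus), Aars chr8:111033722-111033861 (plus), Iars chr13:49682010-49682149 (plus), Tars chr15:11399639-11399778 (minus) and Mars1 chr10:127311767-127311906 (minus).
Yars: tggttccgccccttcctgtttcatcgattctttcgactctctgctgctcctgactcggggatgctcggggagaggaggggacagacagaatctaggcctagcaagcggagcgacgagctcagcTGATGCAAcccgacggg
Gars: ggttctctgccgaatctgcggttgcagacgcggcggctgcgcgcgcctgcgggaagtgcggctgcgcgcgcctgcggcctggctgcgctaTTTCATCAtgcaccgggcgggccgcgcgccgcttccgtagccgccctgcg
Aars: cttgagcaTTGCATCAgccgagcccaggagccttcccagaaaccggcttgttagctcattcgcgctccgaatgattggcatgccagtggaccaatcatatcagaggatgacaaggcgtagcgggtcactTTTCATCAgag
Iars: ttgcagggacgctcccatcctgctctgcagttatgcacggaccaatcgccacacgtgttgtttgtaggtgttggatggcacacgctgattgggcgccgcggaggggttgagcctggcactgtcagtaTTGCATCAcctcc
Tars: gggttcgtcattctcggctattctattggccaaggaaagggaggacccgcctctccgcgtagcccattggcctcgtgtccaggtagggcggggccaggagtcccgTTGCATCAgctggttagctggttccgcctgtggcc
Mars1: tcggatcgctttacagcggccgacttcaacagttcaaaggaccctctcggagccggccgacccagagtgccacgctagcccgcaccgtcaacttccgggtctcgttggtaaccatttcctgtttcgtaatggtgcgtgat

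The genes that share the motif had log2 changes on both sides of 0. Aars holds it at bases -112 to -105 and at bases 10 to 17 counted from the start, Gars at -30 to -23, Yars at 4 to 11, Iars at 8 to 15 and Tars at -15 to -8. Their log2 changes ran from 0.63 for Yars, 0.57 for Gars and 0.57 for Aars to 0.16 for Iars and -0.34 for Tars. Mars1, without a match in this window, had the largest log2 change of the 38 genes.

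Other genes of the charging pathway were described from a list of 21, of which 20 passed the filter. Of these 0 rose and 0 fell, where 0.661% and 1.23% of all genes tested did. Of the 20, 15 were above 0, against 39.6% of all genes, and the median log2 change was 0.09. Mitochondria lack a glutaminyl-tRNA synthetase and instead convert glutamate already bound to the transfer RNA, with an enzyme encoded by Qrsl1, Gatb and Gatc. Qrsl1 went from 2.31 to 3.93 CPM and separated by diet (log2 change 0.77, limma adjusted p = 0.157), and Gatc had 0.56 (limma adjusted p = 0.184), while Gatb had 0.07 (limma adjusted p = 0.862). Eefsec, the elongation factor that brings selenocysteine to the ribosome, was at 30.2 and 44.5 CPM, also without overlap (log2 change 0.55, limma adjusted p = 0.107). Sepsecs, which makes selenocysteine on its transfer RNA, had -0.68 (limma adjusted p = 0.191). Mtfmt, which formylates the mitochondrial initiator methionine, had -0.58 (limma adjusted p = 0.184), and Xpot, the exporter of transfer RNA from the nucleus, 0.51 (limma adjusted p = 0.404).

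Reported ATF4 targets outside the synthetases included larger changes. Of 28 listed genes 25 were tested, 3 rose (Asns, Psat1 and Fgf21) and 0 fell, and the median log2 change was 0.44. Over all genes tested 0.661% rose and 1.23% fell. This list, too, was drawn up with earlier results of these data known. Asns, which makes asparagine, was at 0.614 CPM in LD_405, within the SD range of 0.0876 to 1.38 CPM, and at 6.99 to 13.2 CPM in the other LD mice. LD_405 was thus the lowest LD mouse for Asns. It was also the lowest LD mouse for 10 of the 21 cytosolic synthetases, Nars, the asparagine enzyme, among them. Atf4 mRNA itself was at 61.1 CPM in LD_405 and 97.4 to 133 CPM in the other LD mice, against 78.0 to 105 CPM on SD (log2 change 0.11, limma adjusted p = 0.814). Cth, which makes cysteine, was lower on LD without overlap at 296 and 162 CPM (log2 change -0.92, limma adjusted p = 0.0718), while Cars had 0.84.

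Markers of several liver cell types differed between the same groups. For the calls below, the shares of all genes tested were 0.661% risen and 1.23% fallen. The summed CPM of 7 hepatocyte markers, most of it Alb, was 97801 to 146989 on SD and 148277 to 201431 on LD, with 0 of 7 called. Of these 7 genes 4 were above 0 and 3 below, with a log2 change of 0.68 for Alb and a median of 0.15. The sums of 7 sinusoidal endothelial markers were 190 to 273 and 86.2 to 174, with all 7 below 0 and 0 called, and those of 7 stellate cell markers 263 to 408 and 150.3 to 248, with all 7 below 0 and 1 called. Of 7 neutrophil and monocyte markers 4 were tested and 1 fell, with sums of 3.87 to 81.3 and 1.52 to 3.68 CPM, and Ly6g, Cxcr2, Retnlg and Mpo were at 0 in at least 1 mouse, as were Lyve1, Cd3d, Ncr1 and Krt7 of the other lists. The 8 Kupffer cell markers summed to 324 to 578 and 183 to 623 CPM, and the 5 B and plasma cell markers to 16.1 to 94.4 and 6.90 to 20.6 CPM, with 0 called in either. T and NK cell markers (5 of 6 tested) summed to 3.68 to 16.6 and 0.962 to 14.7 CPM, and cholangiocyte markers (3 of 4 tested) to 3.39 to 10.4 and 3.18 to 6.54 CPM, with 0 called in either. Of the Kupffer cell markers 7 were below 0 and 1 above, with a median log2 change of -0.62. All 4 neutrophil and monocyte markers tested were below 0 (median -2.88). So were all 5 B and plasma cell markers (median -1.45) and all 5 T and NK cell markers tested (median -0.36). Of the cholangiocyte markers tested 2 were above 0 and 1 below. Over all genes tested 39.6% were above 0. The share of reads on mitochondrially encoded genes was 5.12% to 11.4% on SD and 3.25% to 7.21% on LD. The part of these differences, and of the lower depth on LD, in the synthetase values was not tested.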

How the data were processed

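Liver poly-A RNA of 10 mice was sequenced from libraries made by Novogene, per the labels' protocols. The authors deposited 1 table of CPM values per gene and mouse, to which 0.0001 had been added; this was subtracted. STAR, Partek and the mm39 genome are named, per the submitters' processing notes, and the quantifier, annotation and low-count filter are not given in the sources used here. Steps in the low values gave the estimated depth, with 84.5% to 87.9% of values under 100 reads within 0.1 of a whole read, too few to treat them as counts. The floor of 3 reads covers counting error only.

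Log2(CPM + 0.1) was compared, for the 13157 genes averaging 1 CPM or more, between 5 LD and 5 SD mice with limma 3.58.1 (R 4.3.3, statmod 1.5.0; trend and robust options), with diet as the sole term, two-sided, Benjamini-Hochberg over all genes at 0.05. Confidence intervals are 95%. "Rose" and "fell" mean past that threshold. In 5 simulations of 200 changed genes, tested on simulated data with 13124 to 13151 genes, this recovered 0.4% of genes changed 1.5-fold and 14.8% of those changed 2-fold, and 3.8% of 79 calls were false. All synthetases but 1, which is counted but not reported here by itself, are named, with values per mouse where called or where the diets do not overlap; Cars, Lars2 and Tars were given per mouse after their values were seen. The members and lists were chosen with earlier results of these data known. Alternatives were pseudocounts of 0.5 and 1 CPM, filters, median-of-ratios, TMM (trimmed mean of M values) and quantile scaling, library weights, a covariate, a threshold of 0.1 and leaving out each mouse. Transcript overlap by 31-base stretches used GENCODE M21.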

Additional observations from a re-analysis of the deposited data

Results flagged for a closer look

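Log2 levels were checked in 76 groups of 5 mice (38 genes on each diet), while the values printed below are CPM. In 5 groups a mouse's gap to its nearest neighbour was more than 0.71 of the whole log2 range. Chance passes this limit in about 1 of 20 groups. LD_405 was the mouse in 4 of the 5. Hars in LD_405 was at 12.2 CPM against 19.4 to 23.4 CPM in the other LD mice. Rars in LD_405 was at 18.2 CPM against 25.5 to 27.3 CPM. Nars2, the mitochondrial asparagine enzyme, was at 8.53 CPM in LD_405 against 10.6 to 11.0 CPM, and Tarsl2 at 2.82 CPM against 7.52 to 11.1 CPM. On SD, Eprs in SD_502 was at 86.3 CPM against 58.8 to 65.4 CPM in the other mice. The gap was 0.713 of the log2 range for Hars and 0.712 for Tarsl2, only just past the limit. All 5 values stand well above 3 reads.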

How the results depend on the processing

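No paired analysis was possible because no mouse number occurs on both diets. Across the alternatives 27 of the 38 synthetases kept the sign of their log2 change and 11 did not, the latter lying between -0.15 and 0.16 in the deposited scaling. The number of cytosolic genes that rose, 1 in the deposited scaling, was 0 without a filter and with the leading digit of the mouse number as covariate. It was 4 with median-of-ratios scaling, with TMM scaling, with array weights and at a threshold of 0.1, 2 with quantile normalization, and 0 to 3 when a mouse was left out. No mitochondrial gene rose or fell in any alternative run; their median was 0.29 with quantile normalization. The genes called over the whole table, 249 in the deposited scaling, numbered 805 with array weights, 98 with the covariate, 541 at a threshold of 0.1 and 87 to 380 when a mouse was left out. The cause of these shifts was not tested.

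With median-of-ratios scaling the log2 change was 0.018 for Wars2, 0.017 for Dars, 0.028 for Eprs, 0.087 for Iars2 and 0.065 for Tarsl2. With TMM it was 0.0059, 0.0047, 0.015, 0.074 and 0.053 in the same order. Quantile normalization gave 0.15 for Wars2, 0.15 for Tarsl2, 0.18 for Pars2 and 0.015 for Cars2. Array weights gave 0.053 for Wars2, 0.085 for Eprs, 0.10 for Iars2 and 0.35 for Tarsl2. The covariate gave 0.017 for Eprs, 0.034 for Iars2, -0.11 for Tars2, 0.044 for Tarsl2 and -0.054 for Mars2. Leaving out a mouse gave -0.18 to 0.0084 for Wars2, -0.15 to 0.046 for Dars, -0.15 to 0.040 for Eprs, -0.14 to 0.20 for Iars2, -0.038 to 0.19 for Rars2, -0.19 to 0.30 for Tarsl2, -0.024 to 0.48 for Iars, -0.28 to 0.0070 for Pars2 and -0.045 to 0.38 for Mars2. Mars1 passed the threshold with either other pseudocount, the stricter filter, every other scaling, array weights and the fit without the robust option. Every value stands above 3 reads.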
